A study of Mus musculus with 12 samples.

Results

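The genes described here are 10 regulators of blood stem cells and leukaemia: the receptors Kit and Flt3, the surface molecule Slamf1, the secreted ligand Angpt1, the transcription regulators Myb, Hlf, Mecom, Eya1 and Mllt3, and the RNA-binding protein Msi2. They were chosen by name, as progenitor receptors and regulators tied to self-renewal and to Hoxa9 and Meis1 leukaemia, and each is read from the 1 probe set that the platform annotation gives to that symbol alone. They are 10 of 14860 genes so named. Levels are log2 expression values on 12 Affymetrix arrays, so that a difference of 1 is a 2-fold change.

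All 12 arrays hold RNA of bone marrow progenitors in primary culture. Per the labels, the donors were female C57B/6 mice, 12 weeks old and given 5-FU (fluorouracil, which kills cycling marrow cells), the cells were transduced with an MSCV retroviral construct, and every culture overexpressed Hoxa9 and grew in DMEM with FCS, IL3, SCF and IL6. The miR-155 group (3 arrays) overexpressed miR-155 beside Hoxa9 in wild-type cells. The KO group (3 arrays) held cells of miR-155 knockout mice with the empty vector MIG. The Meis1 group (1 array) overexpressed Meis1 beside Hoxa9 in wild-type cells; its title alone carries the tag 3w, which no label explains, so a difference in time or harvest from the other arrays cannot be told apart from Meis1. Wild-type controls carried an empty vector, either MIY (2 arrays) or MIG (3 arrays), and the labels do not say which of them belongs to the Meis1 array. The design text speaks of independent experiments, but no label ties an array to its own culture or animal, so the p-values measure the spread between these arrays. RNA came from whole cultures, in which fewer cells of a type and less RNA per cell cannot be told apart.

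Hoxa9 and Meis1 are homeobox transcription factors that keep immature myeloid cells dividing, and together they are a classic pair for making acute myeloid leukaemia in mice. Kit binds stem cell factor (SCF) and Flt3 binds Flt3 ligand; both are receptor tyrosine kinases of early progenitors, and both are mutated in human leukaemia. MiR-155 is a microRNA of immune and myeloid cells. A microRNA lowers its target messages by pairing mainly through its seed, the bases near its 5′ end.

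The transduced genes were read first. Hoxa9 lay between 13.07 on the Meis1 array and 13.41 on the higher MIY array. Meis1 was 12.11 on the Meis1 array, against group means of 6.92 in MIY and 7.58 in MIG cells. MiR-155 itself was not measured here. The genes Eif2s3y and Kdm5d of the Y chromosome were at 8.24 and 6.89 on the Meis1 array and at 9.23 to 9.31 and 8.05 to 8.15 on the MIY arrays, against 2.22 to 2.48 and 3.32 to 3.50 on the other 9 arrays. The label female is at odds with those values for the 3 arrays of the MIY and Meis1 groups. Where these 3 arrays are compared with the others, donor sex or origin cannot be told apart from Meis1, miR-155 or the vector. Over all probe sets the 2 MIY arrays correlated with the MIG arrays at 0.952 to 0.966, below the 0.988 to 0.990 among the MIG arrays. Markers of myeloid progenitors, 10 of 10 measured, averaged 11.3 to 11.9 over the list on every array, although Mpo was at 10.99 on the Meis1 array against a mean of 13.36 in MIG cells, while stromal and endothelial markers averaged 5.56 to 6.01.

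Sequences are given from RefSeq, build GRCm38.p6, to show the microRNA that was added or deleted and the start sites of the genes that the results turn on. The mature miR-155-5p lies at chr16:84714143-84714165 on the plus strand, 23 bases long, and its seed (bases 2 to 8) is in capitals.
miR-155-5p: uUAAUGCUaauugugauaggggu
RefSeq start-site windows (250 bases before to 50 after a start) were found for 8 of the 10 genes, 13 windows in all. Capitals mark a match to TGACAG, the core that Meis proteins are known to bind, here as CTGTCA because it reads on the opposite strand. Flt3, which had the highest rise of the 10 genes on the Meis1 array, has the window chr5:147400440-147400739 on the minus strand, with no match.
Flt3: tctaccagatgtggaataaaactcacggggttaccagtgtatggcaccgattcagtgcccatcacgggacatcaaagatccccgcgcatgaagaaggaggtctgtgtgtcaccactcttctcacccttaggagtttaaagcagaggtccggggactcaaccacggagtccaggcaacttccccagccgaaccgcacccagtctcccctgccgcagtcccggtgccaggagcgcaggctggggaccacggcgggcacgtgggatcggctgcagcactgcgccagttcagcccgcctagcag
Mllt3, which was lower on the Meis1 array, has a match in its inner start window, chr4:87806274-87806573 on the minus strand, 50 bases before the start.
Mllt3: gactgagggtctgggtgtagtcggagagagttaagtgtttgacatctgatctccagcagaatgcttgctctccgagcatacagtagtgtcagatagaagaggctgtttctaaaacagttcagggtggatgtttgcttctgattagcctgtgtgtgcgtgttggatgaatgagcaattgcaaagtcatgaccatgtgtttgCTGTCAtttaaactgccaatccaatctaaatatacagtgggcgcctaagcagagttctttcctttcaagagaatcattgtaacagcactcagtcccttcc
Mecom, which was furthest apart between the MIY arrays, has a match in its inner start window, chr3:30013155-30013454 on the minus strand, 86 bases before the start.
Mecom: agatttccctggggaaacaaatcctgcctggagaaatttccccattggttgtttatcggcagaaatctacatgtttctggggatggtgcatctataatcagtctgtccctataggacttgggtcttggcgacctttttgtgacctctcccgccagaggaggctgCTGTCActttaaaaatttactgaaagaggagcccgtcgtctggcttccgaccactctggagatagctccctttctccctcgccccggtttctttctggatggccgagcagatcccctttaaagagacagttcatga
TGACAG was present on either strand in 2 of the 13 windows, beside 19.2% of 32851 RefSeq windows of this length. TGATTNAT, the motif shared by Hox proteins and their partners Pbx and Meis, was present in 0 of the 13, beside 3.22% of all windows. These matches describe letters only.

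**Figure D1:**
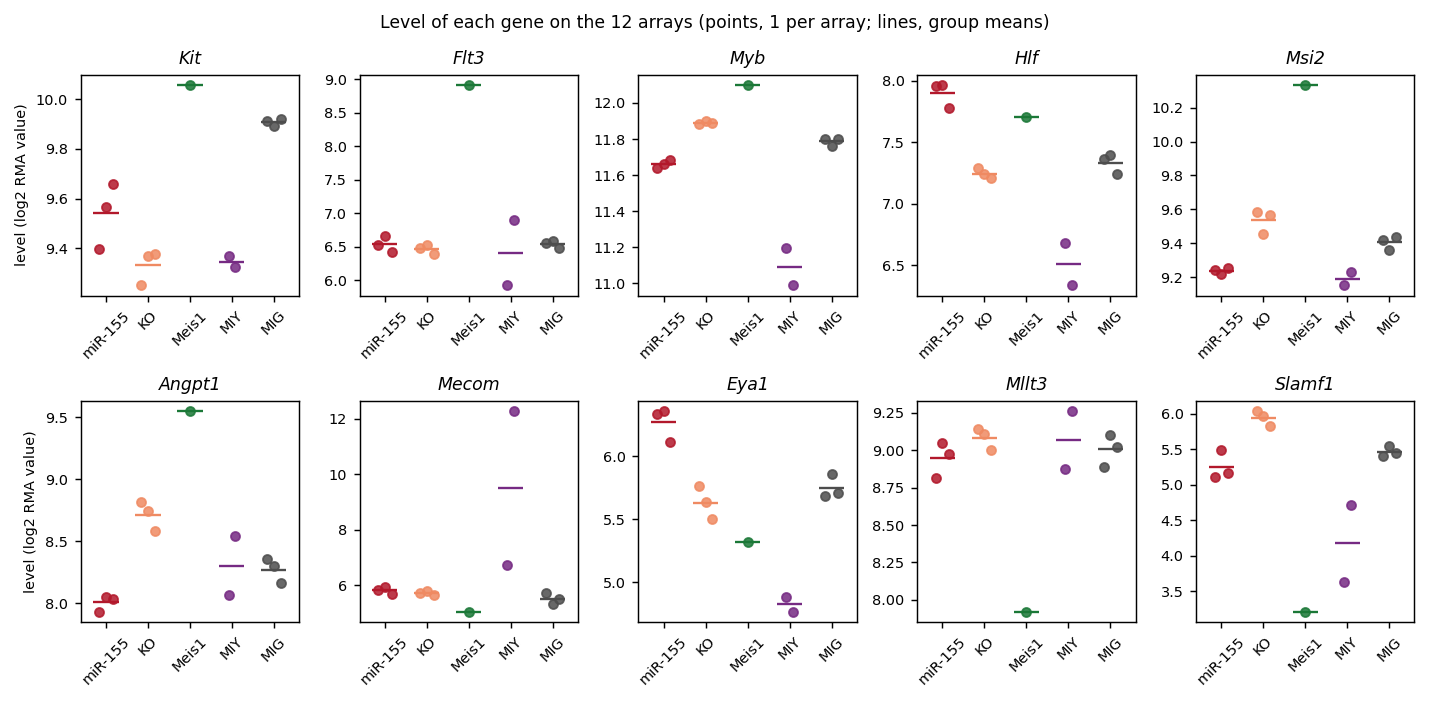
Level (log2 RMA value, vertical axis, with its own range in each panel) of the 10 genes on the 12 arrays, 1 point per array, with a line at each group mean. Flt3, Msi2 and Angpt1 are highest on the Meis1 array, Hlf and Eya1 are highest in the miR-155 group, and 1 MIY array has a Mecom level of 12.27.

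Among the surface receptors, Kit had its highest level on the Meis1 array and its lowest in KO cells. Kit was 9.40, 9.57 and 9.66 in miR-155 cells, 9.25, 9.37 and 9.38 in KO cells, 10.06 in Meis1 cells, 9.37 and 9.32 in MIY cells, and 9.91, 9.89 and 9.92 in MIG cells. The miR-155 and KO arrays all lay below the 3 MIG arrays, which differed among themselves by under 0.1, and the KO and MIY arrays overlapped. Flt3 was 6.53, 6.66 and 6.42 in miR-155 cells, 6.47, 6.52 and 6.40 in KO cells, 8.92 in Meis1 cells, 5.92 and 6.90 in MIY cells, and 6.56, 6.58 and 6.48 in MIG cells. The Meis1 array stood alone, and the other 4 groups overlapped.

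Slamf1, also called CD150, is a surface molecule used to mark mouse stem cells. It was 5.11, 5.49 and 5.17 in miR-155 cells, 6.04, 5.97 and 5.83 in KO cells, 3.21 in Meis1 cells, 3.64 and 4.72 in MIY cells, and 5.41, 5.54 and 5.45 in MIG cells. KO cells had the highest levels, without overlap with any other group, and the Meis1 array the lowest, and the miR-155 and MIG arrays overlapped. The level of Slamf1 was low: its mean over the 12 arrays, 5.13, was at percentile 25.9 of the probe sets tested. Angpt1, the ligand of the receptor Tek (Tie2), was 7.93, 8.05 and 8.04 in miR-155 cells, 8.81, 8.74 and 8.58 in KO cells, 9.55 in Meis1 cells, 8.06 and 8.54 in MIY cells, and 8.35, 8.30 and 8.16 in MIG cells. Its order was Meis1, then KO, with the miR-155 arrays at the bottom; the MIY arrays spanned the MIG range.

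Of the transcription regulators, Myb is needed for the growth of immature blood cells. It was 11.64, 11.66 and 11.69 in miR-155 cells, 11.88, 11.90 and 11.89 in KO cells, 12.10 in Meis1 cells, 11.20 and 10.99 in MIY cells, and 11.80, 11.76 and 11.80 in MIG cells. None of the 5 groups overlapped for Myb, and the whole range was 1.11. Hlf, a bZIP factor active in stem cells, was 7.96, 7.97 and 7.78 in miR-155 cells, 7.29, 7.24 and 7.21 in KO cells, 7.70 in Meis1 cells, 6.68 and 6.34 in MIY cells, and 7.36, 7.40 and 7.25 in MIG cells. The miR-155 arrays were the highest and the MIY arrays the lowest, while KO and MIG arrays overlapped.

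Eya1, a phosphatase that also serves as a coactivator of homeobox proteins, followed the same order at its ends. Eya1 was 6.34, 6.36 and 6.11 in miR-155 cells, 5.76, 5.64 and 5.50 in KO cells, 5.32 in Meis1 cells, 4.88 and 4.76 in MIY cells, and 5.69, 5.86 and 5.71 in MIG cells. All miR-155 arrays were above all others, and KO and MIG arrays overlapped. The level of Eya1 was low: its mean over the 12 arrays, 5.66, was at percentile 34.8 of the probe sets tested. Stromal and endothelial markers averaged 5.56 to 6.01 on the same arrays. Mllt3 (AF9), a subunit of the complex that drives transcription elongation and a fusion partner of MLL in human leukaemia, was 8.81, 9.05 and 8.97 in miR-155 cells, 9.14, 9.11 and 8.999 in KO cells, 7.92 in Meis1 cells, 8.88 and 9.26 in MIY cells, and 8.89, 9.10 and 9.02 in MIG cells. Only the Meis1 array lay apart.

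Mecom encodes the zinc finger factor Evi1 and its longer Mds1-Evi1 form, known in stem cells and in aggressive myeloid leukaemia. Mecom was 5.83, 5.93 and 5.68 in miR-155 cells, 5.74, 5.78 and 5.63 in KO cells, 5.05 in Meis1 cells, 6.72 and 12.27 in MIY cells, and 5.72, 5.31 and 5.52 in MIG cells. One MIY array stood far above the other 11 arrays. Msi2 (Musashi 2) binds RNA and sustains stem and leukaemia cells. Msi2 was 9.24, 9.22 and 9.25 in miR-155 cells, 9.58, 9.45 and 9.57 in KO cells, 10.34 in Meis1 cells, 9.15 and 9.23 in MIY cells, and 9.42, 9.36 and 9.44 in MIG cells. The Meis1 array was highest, KO arrays lay just above MIG arrays, and miR-155 and MIY arrays overlapped.

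Added miR-155 was first set against the MIG control, to ask what it changes in wild-type Hoxa9 cells. In miR-155 cells Hlf and Eya1 were higher and Kit was lower than in MIG cells. Hlf averaged 7.90 ± 0.11 in miR-155 cells and 7.34 ± 0.08 in MIG cells (SD, n = 3 each), a rise of 0.57 ± 0.10 (standard error) or 1.48-fold, with a limma adjusted p of 0.0117. Eya1 averaged 6.27 ± 0.14 in miR-155 cells and 5.75 ± 0.09 in MIG cells, a rise of 0.52 ± 0.10 or 1.43-fold (limma adjusted p = 0.0164). Kit averaged 9.54 ± 0.13 in miR-155 cells and 9.91 ± 0.01 in MIG cells, and fell by 0.37 ± 0.08 (limma adjusted p = 0.0299). A gene was called at an adjusted p under 0.05 in a limma fit over all 12 arrays, with Benjamini-Hochberg adjustment over 16015 probe sets.

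These 3 of 10 genes, 2 up and 1 down, stand beside 3.29% of all probe sets called in this comparison, of which 98 rose and 429 fell. Quantile normalization gave 172 that rose and 420 that fell. The median change of the 10 genes was -0.09, against -0.01 over all probe sets. Leaving out 1 array, which leaves fewer in the fit, ended several calls while the changes stayed near their size. Kit was not called without miR-155 array I (change -0.30, limma adjusted p = 0.104) or II (-0.38, 0.0680), or without MIG array I (-0.37, 0.0963), II (-0.38, 0.101) or III (-0.36, 0.117), nor with a common array median (-0.33, 0.0674) or with all probe sets tested (-0.37, 0.0634). Eya1 was not called without miR-155 array I (0.49, 0.0760) or II (0.47, 0.0583), or without MIG array I (0.49, 0.0681) or III (0.50, 0.0786). Hlf was not called without miR-155 array I (0.54, 0.0579) or MIG array III (0.52, 0.0610).

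The other 7 genes did not pass between miR-155 and MIG cells. Angpt1 differed by -0.27 ± 0.12 (limma adjusted p = 0.326), Msi2 by -0.17 ± 0.06 (0.229) and Myb by -0.13 ± 0.07 (0.421). For Flt3 the difference was -0.01, with a 95% interval of -0.44 to 0.43. Slamf1 differed by -0.21 ± 0.22, Mllt3 by -0.06 ± 0.11 and Mecom by 0.30 ± 1.02. For Mecom the spread that the fit shares among groups includes the 2 MIY arrays, which lie 5.55 apart; its arrays overlapped between miR-155 and MIG cells.

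Other genes of the same pathways were read from 6 lists. Of 8 measured ligands and related receptors, Csf1r, the receptor of macrophage colony stimulating factor and a relative of Kit and Flt3, fell by 1.09 ± 0.20 (limma adjusted p = 0.0164) and none rose. Among 16 signalling genes below Kit and Flt3, 0 passed, with a median change of -0.14 against -0.01 over all probe sets. Slamf7, a relative of Slamf1, fell by 1.20 and was the only 1 of 18 relatives called. Gata2, a stem and mast cell transcription factor, fell by 0.93, the only 1 of 20 other stem and progenitor genes called. In the list of 23 Hoxa9 and Meis1 leukaemia genes, Hoxa7 rose by 0.42 and Id2, an inhibitor of bHLH factors, fell by 0.63. Of 11 partners and targets of Msi2 and Myb, Gfi1 alone passed and fell by 0.42. The medians of those 5 lists were -0.03, 0.01, -0.06, 0.03 and -0.05.

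Kit is also a receptor of mast cells, and markers of mast cells and basophils, among other cell types, moved beside it. The mean level of the mast cell and basophil list was 7.63 to 7.81 in miR-155 cells and 8.90 to 9.10 in MIG cells, and 11 of 12 markers fell, Gata2 among them. For KO cells the same list was at 8.83 to 8.89, with 1 of 12 called. Monocyte and macrophage markers averaged 8.64 to 8.88 in miR-155 cells and 9.48 to 9.64 in MIG cells, and 6 of 10 fell, Csf1r among them (list median -0.76). Eosinophil markers averaged 6.47 to 6.62 in miR-155 cells and 7.61 to 7.86 in MIG cells, and 4 of 6 fell (list median -1.17). Red cell and megakaryocyte markers fell in 3 of 7 cases, and 1 or 2 markers fell in each of the other 4 lists. The part of these markers in the changes of Kit, Hlf, Eya1, Csf1r and Gata2 was not tested.

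KO cells were set against MIG cells of wild-type mice to ask what loss of the miR-155 gene changes. By limma 0 of the 10 genes were called, with an unadjusted p under 0.05 for 2 of them, Kit and Angpt1, beside 0.0312% of all probe sets called and 774 at an unadjusted p under 0.05. Kit came nearest: it averaged 9.33 ± 0.07 in KO cells and 9.91 ± 0.01 in MIG cells (SD, n = 3 each), a difference of -0.58 ± 0.08 or 1.49-fold, with an adjusted p of 0.0534. Kit was called in 5 of 15 other settings, such as with the arrays shifted to a common level (-0.56, adjusted p = 0.0342) and in a fit without the MIY and Meis1 arrays (-0.58, adjusted p = 0.0385).

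Angpt1 was higher in KO than in MIG cells by 0.44 ± 0.12 (limma adjusted p = 0.747) and Slamf1 by 0.48 ± 0.22 (0.996), differences that did not pass. Kit, Myb, Msi2, Angpt1 and Slamf1 had arrays that did not overlap between KO and MIG cells, 5 of 10 genes, beside 14.8% of all probe sets. Flt3 differed by -0.08, with a 95% interval of -0.51 to 0.35, and Mllt3 by 0.08, with an interval of -0.17 to 0.32. The median change of the 10 genes was 0.09, against -0.02 over all probe sets. In the 6 pathway lists 0 genes were called, and their medians lay between -0.08 and 0.03.

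Cells with added miR-155 were then set against cells that lack its gene. Hlf and Eya1 were again higher in miR-155 cells, now against KO cells, and Angpt1 and Msi2 were lower. Hlf averaged 7.90 ± 0.11 in miR-155 cells and 7.25 ± 0.04 in KO cells, a rise of 0.66 ± 0.10 or 1.58-fold (limma adjusted p = 0.00459). Eya1 averaged 6.27 ± 0.14 in miR-155 cells and 5.63 ± 0.13 in KO cells, a rise of 0.64 ± 0.10 (limma adjusted p = 0.00489). Angpt1 averaged 8.01 ± 0.07 in miR-155 cells and 8.71 ± 0.12 in KO cells, and fell by 0.71 ± 0.12 or 1.63-fold (limma adjusted p = 0.00934). These 3 calls held in all 15 other settings tried, and the comparison shares its miR-155 arrays with the one against MIG.

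Msi2 fell by 0.30 ± 0.06 (limma adjusted p = 0.0284), but the call was lost in 9 of the 15 settings. It was lost without miR-155 array I (adjusted p = 0.0905), II (0.0838) or III (0.0728) and without KO array I (0.120) or III (0.102). The 4 called genes, 2 up and 2 down, stand beside 4.06% of all probe sets, of which 174 rose and 477 fell. That split was 277 and 453 after quantile normalization and 258 and 429 with a common array median. The median change of the 10 genes was -0.03, against 0.00 over all probe sets.

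Slamf1 differed between miR-155 and KO cells by -0.69 ± 0.22, with a limma adjusted p of 0.138. In a fit without the MIY and Meis1 arrays, whose Slamf1 levels were scattered, the adjusted p was 0.00386. Myb differed by -0.23 ± 0.07 (adjusted p = 0.103, and 0.0278 without those arrays). Kit differed by 0.21 ± 0.08 (0.204), so that the gap in Kit between miR-155 and KO cells was not called. Flt3, Mllt3 and Mecom differed by 0.07, -0.14 and 0.10, all with overlapping arrays.

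Relatives of the 10 genes moved in both directions between miR-155 and KO cells. Among 18 relatives, Ly9, a Slamf family member, rose by 0.86, while Slamf7 and Cd84 of the same family fell by 0.88 and 0.30. Flt3l, the ligand of Flt3, rose by 0.37 and Csf1r fell (limma adjusted p = 0.0222), the 2 called of 8 ligands and receptors. Gata2 and Gfi1b, regulators of early and megakaryocytic cells, fell by 1.20 and 0.85, of 20 stem and progenitor genes. In the leukaemia list of 23, Hoxa7 rose by 0.63, Camk2d by 0.70 and Mef2c by 0.43, while Id2 fell by 0.66 and Meis1 by 0.51. Gfi1 fell by 0.43, alone of 11 Msi2 and Myb partners, and 0 of 16 signalling genes passed. The list medians lay between -0.13 and 0.04, against 0.00 over all probe sets. Mast cell and basophil markers fell in 10 of 12 cases (list mean 7.63 to 7.81 in miR-155 cells, 8.83 to 8.89 in KO cells). Monocyte and macrophage markers fell in 5 of 10 cases (list median -0.62), eosinophil markers in 3 of 6 (-0.99) and red cell and megakaryocyte markers in 4 of 7 (-0.58), and 1 or 2 fell in each of the other 4 lists. The part of these markers in the changes above was not tested.

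**Figure D2:**
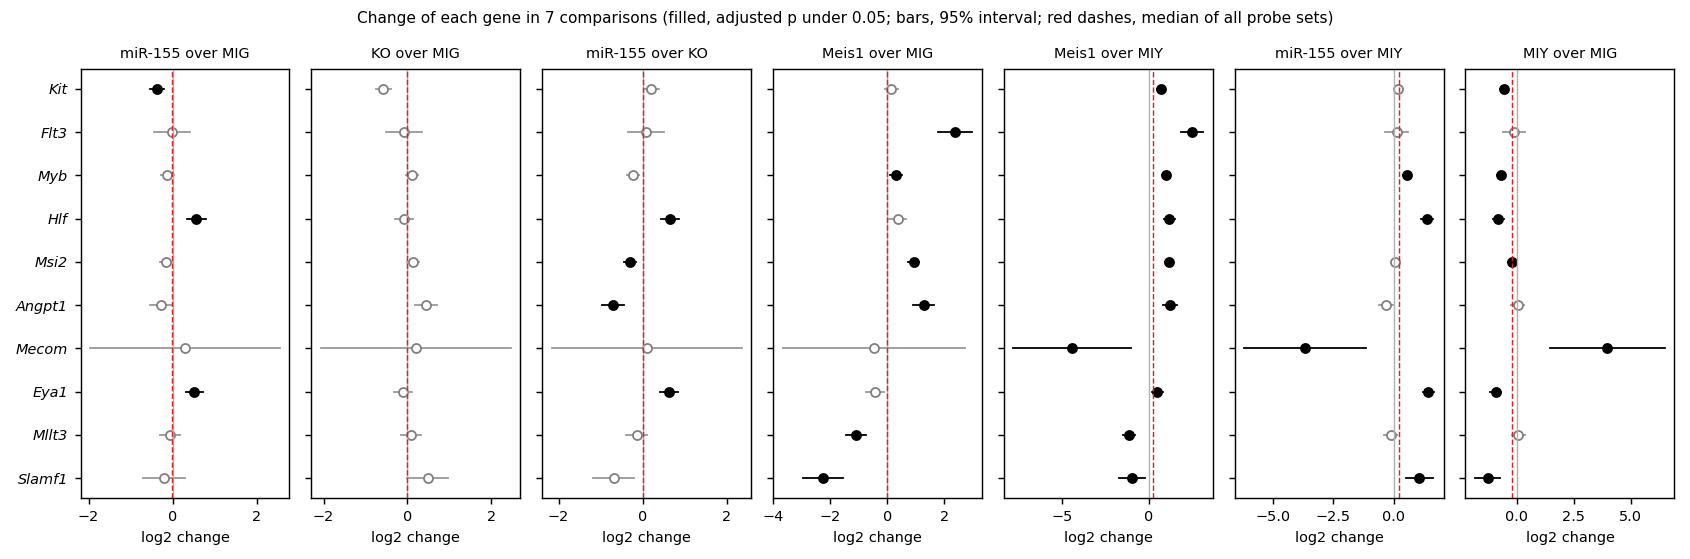
Log2 change (horizontal axis) of each gene in the 7 comparisons, with 95% intervals from limma; filled points passed an adjusted p of 0.05 and the red dashed line is the median change of all probe sets. Each panel has its own range: Flt3 and Msi2 lie right of the line in the comparisons of Meis1, and Mecom has the widest interval in every panel.

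The Meis1 array was set against both empty vectors. Against MIG, Flt3, Angpt1, Msi2 and Myb were higher and Slamf1 and Mllt3 lower. Flt3 was 8.92 in Meis1 cells and averaged 6.54 ± 0.05 in MIG cells (SD, n = 3), a rise of 2.38 ± 0.27 or 5.20-fold (limma adjusted p = 0.000233). It had the 20th highest change of 16015 probe sets. Angpt1 was 9.55 in Meis1 cells and averaged 8.27 ± 0.10 in MIG cells, a rise of 1.28 ± 0.17 or 2.43-fold (limma adjusted p = 0.000589). Msi2 was 10.34 in Meis1 cells and averaged 9.40 ± 0.04 in MIG cells, a rise of 0.93 ± 0.09 (limma adjusted p = 6.81e-05).

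Slamf1 was 3.21 in Meis1 cells and averaged 5.47 ± 0.07 in MIG cells, and fell by 2.26 ± 0.31 or 4.78-fold (limma adjusted p = 0.000848). Both levels of Slamf1 were low, below the 5.56 to 6.01 that stromal and endothelial markers averaged on these arrays. Mllt3 was 7.92 in Meis1 cells and averaged 9.005 ± 0.11 in MIG cells, and fell by 1.08 ± 0.16 or 2.12-fold (limma adjusted p = 0.00101). Those 5 calls held in all 11 other settings, whereas Myb, with a rise of 0.31 ± 0.09 (adjusted p = 0.0485), was lost without MIG array I (0.32, 0.0837), II (0.30, 0.112) or III (0.32, 0.0951), and with the change at 0.31 it was lost with all probe sets tested (0.0721) and with only the groups compared (0.0688). With 1 Meis1 array, its spread is assumed to be that of the other groups. The Y-linked genes also differed between the Meis1 and MIG arrays, so a difference in donor sex or origin cannot be told apart from Meis1.

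The 6 called genes, 4 up and 2 down, stand beside 15.4% of all probe sets, of which 956 rose and 1504 fell; with a common array median the split was 2024 and 1216, and with quantile normalization 1308 and 1399. Kit (0.15 ± 0.11, limma adjusted p = 0.434), Hlf (0.37 ± 0.14, 0.105), Eya1 (-0.43 ± 0.14, 0.0594) and Mecom (-0.47 ± 1.44, 0.884) did not pass. Hlf was called with quantile normalization (0.46, limma adjusted p = 0.0383) and with a common array median (0.49, 0.0244), and Eya1 was called among probe sets with a mean of at least 5 (-0.43, 0.0405). The median change of the 10 genes was 0.23, against 0.01 over all probe sets.

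Within the receptor family the Meis1 array went 2 ways. Csf1r, which marks monocytes and macrophages, fell by 4.25 ± 0.28 against MIG (limma adjusted p = 5.85e-06), while Flt3 rose; Pdgfrb rose by 0.61, and the other 6 of 8 ligands and receptors did not pass. Of 16 signalling genes, the adaptor Sh2b3, a known brake on such receptors, fell by 0.79, the phosphatase Ptpn6 by 0.54 and the kinase Fes by 0.56. Among the 18 relatives, Slamf7 fell by 2.24, Nfil3, a bZIP relative of Hlf, by 1.33, and Cd244a by 0.70, while Cd48, of Slamf1's family, rose by 0.91 and Mllt1 (ENL), the sister of Mllt3, by 0.34. Medians were -0.03, -0.24 and -0.07 for these 3 lists.

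In the list of 20 stem and progenitor genes, Gfi1b fell by 1.94, Gata2 fell by 1.61 and Hmga2 fell by 0.49 on the Meis1 array against MIG, and none rose. Of 23 leukaemia genes, Meis1 itself rose by 4.53 and Psip1, a partner of MLL, by 0.48, while Id2 fell by 3.70, Mef2c by 1.25, Ccl3 by 0.81 and Pim1 by 0.66, and 1 more gene fell. Numb, which Musashi proteins are known to repress, fell by 0.57 and Syncrip rose by 0.55, of 11 partners. Any link between the levels of Numb and Msi2 was not tested. The medians were 0.07, -0.10 and 0.30.

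Markers of several cell types were low on the same array. Late granulocyte markers averaged 7.26 in Meis1 cells and 10.6 to 10.7 in MIG cells, with 9 of 9 falling; monocyte and macrophage markers averaged 6.82 in Meis1 cells and 9.48 to 9.64 in MIG cells, with 8 of 10 falling and 1 rising; and mast cell and basophil markers averaged 6.63 in Meis1 cells and 8.90 to 9.10 in MIG cells, with 11 of 12 falling. Eosinophil markers averaged 5.23 in Meis1 cells and 7.61 to 7.86 in MIG cells, with 5 of 6 falling, and red cell and megakaryocyte markers averaged 5.93 in Meis1 cells and 7.17 to 7.22 in MIG cells, with 5 of 7 falling. Of the myeloid progenitor list 5 of 10 fell, of the lymphoid list 1 of 8, and of the stromal and endothelial list 2 of 11 rose and 1 fell. Their part in the changes of Flt3, Slamf1 and the other genes was not tested.

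In comparisons with MIY, the changes over all probe sets were uneven in direction. The median change of all probe sets was 0.23 for Meis1 over MIY, 0.21 for miR-155 over MIY and -0.22 for MIY over MIG, so the changes that follow are relative to it, after each array was shifted to a median difference of 0 from the mean array. Probe sets called numbered 44.1%, 48.3% and 49.5% as deposited and 34.1%, 37.8% and 38.5% after the shift. A call in these comparisons is read against that background. With a common array median, 5489 rose and 1712 fell for Meis1 over MIY. For miR-155 over MIY that split was 4800 and 1973, and for MIY over MIG 2038 and 4536. Quantile normalization gave 4490 and 2107, 4553 and 2203, and 2274 and 4478 in the same order. After the shift they were 2463 and 2993, 2917 and 3143, and 3179 and 2993. Whether array scale or changes of genes set this lean was not tested. As deposited, the median change of the 10 genes was 0.86, 0.16 and -0.39 in the same order.

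Against MIY, the Meis1 array had higher Flt3, Angpt1, Hlf, Msi2, Myb and Kit and lower Mecom, Mllt3 and Slamf1. After the shift Flt3 rose by 2.28 ± 0.29 (limma adjusted p = 0.000340), Angpt1 by 1.02 ± 0.18, Hlf by 0.97 ± 0.15, Msi2 by 0.92 ± 0.10, Myb by 0.78 ± 0.10 and Kit by 0.48 ± 0.10. Mecom fell by 4.68 ± 1.54, Mllt3 by 1.37 ± 0.16 and Slamf1 by 1.20 ± 0.33. Eya1 differed by 0.27 (0.172), although as deposited it was the 10th gene called, with 7 up and 3 down. Of all probe sets, 44.1% were called as deposited, with 5297 up and 1769 down, and 34.1% after the shift. Flt3, Msi2 and Angpt1 rose and Mllt3 and Slamf1 fell against either control, 2 comparisons that share the single Meis1 array. Hlf and Kit were called against MIY; against MIG Kit differed by 0.15 and Hlf by 0.37, and the call of Hlf there depended on the scaling, as given above. Without MIY array 2, Slamf1 (change as deposited -0.43, adjusted p = 0.0861) and Eya1 (0.44, 0.0591) were not called, and Mecom's change was -1.67.

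The comparison of miR-155 with MIY is the one that the design text names. Its groups also differed in the Y-linked genes, so donor sex or origin cannot be told apart from miR-155 here. After the shift Hlf rose by 1.19 ± 0.11, Eya1 by 1.24 ± 0.11, Slamf1 by 0.87 ± 0.25 and Myb by 0.36 ± 0.07 in miR-155 cells. Mecom fell by 3.89 ± 1.14, Angpt1 by 0.50 ± 0.13 (limma adjusted p = 0.0137) and Mllt3 by 0.33 ± 0.12 (0.0473), neither of which was called as deposited. Angpt1 was also called with quantile normalization (-0.40, 0.0393) and with a common array median (-0.36, 0.0433). Mllt3 was called in 1 of 12 other settings, the shift itself, and its change over these settings ran from -0.33 to 0.07. That makes 7 of the 10 genes after the shift, beside 37.8% of all probe sets. As deposited it was 5 of 10 (4 up, 1 down), beside 48.3% of all probe sets, of which 6160 rose and 1577 fell. Kit differed by -0.01 ± 0.08 and Msi2 by -0.16 ± 0.08. Mecom's call was lost without miR-155 array III (adjusted p = 0.0540), and without MIY array 2 its change as deposited was -0.91. As deposited, Slamf1's rise was 1.08 with both MIY arrays, 0.54 without MIY array 1 and 1.62 without MIY array 2.

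Both empty vectors were then set against each other. After the shift, MIY cells had lower Slamf1 (-1.07 ± 0.25, limma adjusted p = 0.00754), Eya1 (-0.70 ± 0.11), Hlf (-0.60 ± 0.11), Myb (-0.47 ± 0.07) and Kit (-0.34 ± 0.08) than MIG cells, and higher Mecom (4.20 ± 1.14, 0.0161). Msi2 was called as deposited (-0.21, 0.0293), but after the shift it differed by 0.01 (0.922). Angpt1, Flt3 and Mllt3 did not pass. These 6 of 10 genes, 1 up and 5 down, stand beside 38.5% of all probe sets after the shift, 3179 up and 2993 down. As deposited 7 of 10 were called, 1 up and 6 down, beside 49.5% of all probe sets, 1457 up and 6464 down. The labels describe both groups as wild-type Hoxa9 cultures with an empty vector. The Y-linked genes were high only in MIY cells of these 2 groups, so donor sex or origin cannot be told apart from the vector.

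Flt3 depended on which MIY array was used. Without MIY array 1 it differed between miR-155 and MIY cells by -0.37 (limma adjusted p = 0.0189) and between MIY and MIG cells by 0.36 (0.0199), and without MIY array 2 by 0.61 (0.00227) and -0.62 (0.00207), so that the direction turned with the array. Angpt1 passed as deposited between miR-155 and MIY cells without MIY array 1 (-0.54, adjusted p = 0.00488), and Kit without miR-155 array I (0.27, 0.0255).

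The pathway lists in the MIY comparisons are read against the same background. After the shift, the Meis1 array against MIY had 1 up and 2 down of 8 ligands and receptors, 4 up and 6 down of 16 signalling genes, 4 up and 5 down of 18 relatives, 1 up and 4 down of 20 stem genes, 5 up and 7 down of 23 leukaemia genes and 4 up and 1 down of 11 partners. Csf1r fell by 4.15, Slamf7 by 3.92 and Id2 by 3.41, and Mybl2, a relative of Myb, rose by 1.21. Between miR-155 and MIY cells the counts were 2 up and 1 down, 3 up and 2 down, 4 up and 8 down, 4 up and 3 down, 8 up and 3 down and 3 up and 1 down in the same lists. There Gfi1b rose by 1.78, Myc by 0.99 and Cebpa by 0.97, and Slamf7 fell by 2.87. Between MIY and MIG cells they were 1 up and 2 down, 3 up and 4 down, 6 up and 4 down, 3 up and 7 down, 4 up and 9 down and 2 up and 5 down. Gfi1b fell by 2.17, Trib1 by 1.33 and Gata2 by 1.13 in MIY cells, and Slamf7 rose by 1.68 and Dnajc10 by 1.38. As deposited, the list medians lay between -0.15 and 0.40 for Meis1 over MIY, 0.02 and 0.45 for miR-155 over MIY, and -0.39 and -0.14 for MIY over MIG, beside the medians of all probe sets given above.

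Markers again moved beside the genes. The mast cell and basophil list averaged 6.83 to 7.05 in MIY cells and 8.90 to 9.10 in MIG cells, with 12 of 12 falling, and the red cell and megakaryocyte list 6.37 to 6.42 in MIY cells and 7.17 to 7.22 in MIG cells, with 5 of 7 falling as deposited and 4 of 7 after the shift. Eosinophil markers fell in 4 of 6 cases in MIY cells after the shift, with 1 rising, and monocyte and macrophage markers rose in 4 of 10, with 1 falling; of 9 late granulocyte markers 3 fell and 1 rose. Against MIY, after the shift, the Meis1 array had 9 of 9 late granulocyte, 8 of 10 monocyte and macrophage, 4 of 6 eosinophil, 4 of 12 mast cell and basophil and 3 of 7 red cell and megakaryocyte markers falling and none of them rising. In miR-155 cells against MIY, after the shift, 8 of 10 monocyte and macrophage markers and 2 of 9 late granulocyte markers fell, while 6 of 12 mast cell and basophil and 3 of 7 red cell and megakaryocyte markers rose, and of 6 eosinophil markers 1 rose and 2 fell. The part of these markers in the changes of the 10 genes was not tested.

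Mecom on MIY array 2 stood far above its level on the other 11 arrays. At 12.27 it was 47.0-fold above the 6.72 of MIY array 1, which was itself above the 5.05 to 5.93 of the 10 arrays of the other groups. The difference of 5.55 between the MIY arrays ranked 1st of 16015 probe sets; next came Gsta4 at 2.93, Pdcd1 at 2.83, Olfr1451 at 2.67 and Scin at 2.63, named after their values were seen. Among the 9 pairs of arrays within the other groups of 3, no probe set differed by more than 4.17. Mecom's fitted change of MIY over MIG, 3.98 ± 1.14 as deposited, was 1.20 without MIY array 2 and 6.76 without MIY array 1, so 1 array sets its size.

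**Figure D3:**
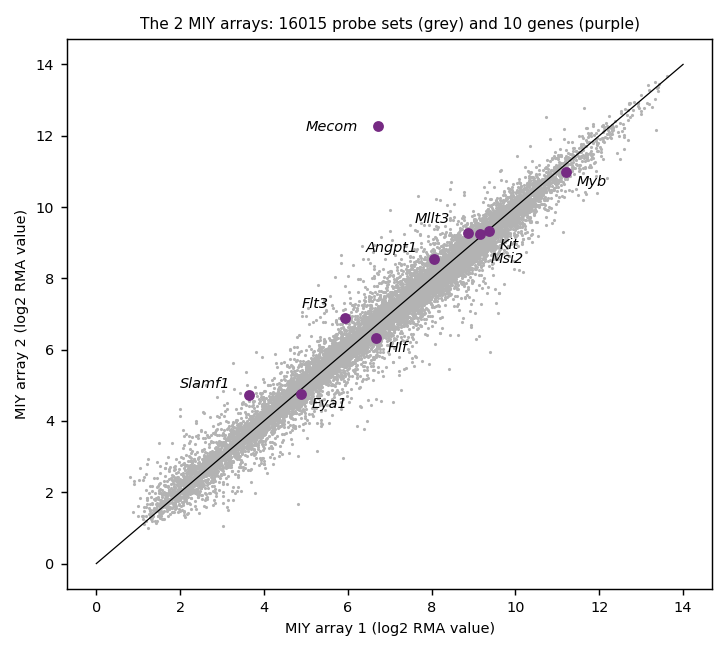
Levels on MIY array 1 (horizontal axis) and MIY array 2 (vertical axis), both log2 RMA values, for 16015 probe sets in grey and the 10 genes in purple; the line marks equal levels. Mecom lies at 6.72 and 12.27, further above the line than any other probe set.

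Other members of the set also differed between the MIY arrays. Slamf1 was higher on array 2 by 1.08 (rank 216 of 16015 from the top), Flt3 by 0.98 (rank 273) and Angpt1 by 0.48, while Kit differed by -0.04, Msi2 by 0.08 and Eya1 by -0.12. In all, 527 probe sets (3.29%) lay at least 2-fold apart between the MIY arrays, against 74 to 141 in the 9 other pairs of arrays of 1 group.

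The neighbours of Mecom on chromosome 3 were read for comparison. The 5 nearest measured genes on each side, Ghsr, Fndc3b, Pld1, Slc2a2 and Eif5a2, and Actrt3, Mynn, Lrriq4, Samd7 and Sec62, differed between the MIY arrays by at most 0.54, in Pld1. MIY array 2 lay outside the range of the 10 arrays of other groups for 8 of these 10 neighbours, beside 63% of all probe sets, for example Mynn at 8.12 against 7.75 to 7.97 and Pld1 at 7.48 against 7.58 to 8.13.

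**Figure D4:**
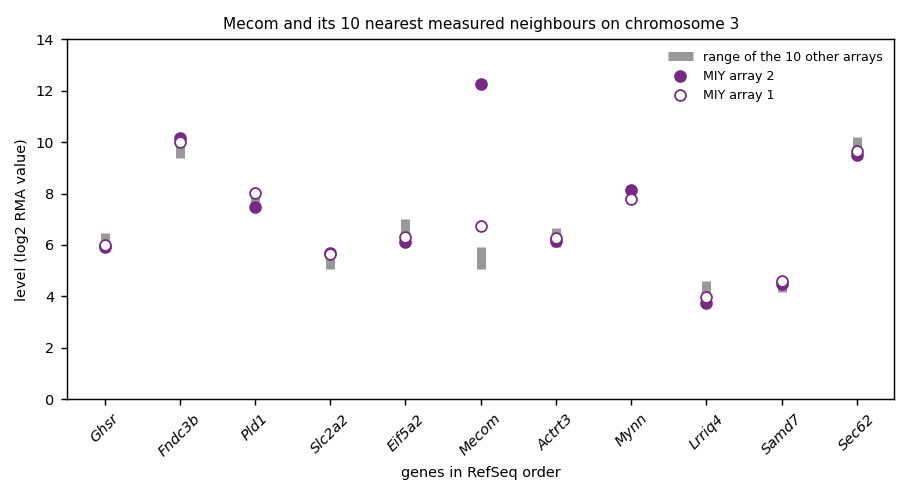
Level (log2 RMA value, vertical axis) of Mecom and its 10 nearest measured neighbours, in RefSeq order along the chromosome (horizontal axis); purple points are the MIY arrays and grey bars the range of the 10 arrays of the other groups. The MIY arrays differ by 5.55 for Mecom and by at most 0.54 for any neighbour.

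Across the 7 comparisons, as deposited, Hlf and Eya1 were each called in 5, Myb, Msi2 and Slamf1 in 4, Kit, Angpt1 and Mecom in 3, and Flt3 and Mllt3 in 2, both with the Meis1 array in each case. The share of all probe sets called ran from 0.0312% for KO over MIG to 49.5% for MIY over MIG. It was 44.1% to 49.5% in the comparisons with MIY, and the comparisons share arrays. Spread within groups made up 1.57% of the variance of Msi2 over the 12 arrays, 2.25% for Myb and 3.46% for Eya1, but 37.8% for Mecom. The single Meis1 array adds nothing to the spread within groups, and for Msi2 and Myb it held the highest level.

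Genes with the most similar profile over the 12 arrays were found for the 9 genes whose group means spanned at least 1, among 2167 genes that also did. Kit, with a span of 0.72, was left out. Meis1 was the gene most like Msi2 (Pearson's r = 0.96), and both had their highest level on the Meis1 array. Flt3 was most like Ocm (0.97) and Pde9a (0.97), Slamf1 most like Id3 (0.97) and Hemgn (0.97), and Mllt3 most like Plcg1 (0.98) and Tpm4 (0.96). Hlf was nearest Tmem254a (0.95), Eya1 nearest Dst (0.97), Myb nearest Dhx33 (0.99), Angpt1 nearest Ttc12 (0.92), and Mecom nearest Pdcd1 (0.98). These values describe 12 arrays in 5 groups, where 1 array can set a coefficient.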

How the data were processed

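RNA of 12 mouse marrow cultures was measured on Affymetrix arrays. Per the submitters' processing notes, the authors used RMA and the Affymetrix Expression Console, with versions not given in the sources used here. This makes the deposited unit log2. Background is corrected and probes are quantile-normalized by RMA, which can hide a change shared by most genes. None of 23332 probe sets had a missing value, and 0 of 66 array pairs were identical.

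A symbol was given to 16015 probe sets by the platform annotation, 1 symbol to 14996 of them; each of the 10 genes has 1 probe set. A group mean was fitted with limma 3.58.1 in R 4.3.3 to all 12 arrays (7 residual and 3.06 prior degrees of freedom), with Benjamini-Hochberg adjustment over 16015 probe sets. A run of the fit on simulated data, whose outcome is not given here, cannot check the spread assumed for the 1 Meis1 array. Errors are limma's standard errors for changes and SDs for levels. For arrays, their number limits the precision.

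The genes, the 6 pathway lists and the marker lists were chosen with earlier results of these data known. Text names the 10 genes, up to 6 called genes per list and comparison by smallest p, and for each gene with a span of at least 1 the 3 most correlated genes, of which some are given. Alternatives were other scaling, other filters, another prior, fewer arrays in the fit, a replicate block and each array left out; the arrays shifted to a median difference of 0 are used where the median change of all probe sets passed 0.1.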

Additional observations from a re-analysis of the deposited data

How the results depend on the processing

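Of 900 values of the 10 genes under other settings, 822 stayed on their side of the threshold, 18 of them uncalled values that changed sign; 54 lost the call, 21 gained it and 3 turned direction. The 3 that turned were Msi2 in MIY over MIG (0.0106 with the arrays shifted) and Flt3 without MIY array 1, whose values over the arrays left out ran from -0.37 to 0.61 for miR-155 over MIY and from -0.62 to 0.36 for MIY over MIG. Counts of calls depended on the arrays in the fit. With only the groups compared, all probe sets called were 852 for miR-155 over MIG, 11 for KO over MIG, 5082 for miR-155 over MIY, and 0 for Meis1 over MIY, where 1 residual degree of freedom is left and 0 of the 10 genes passed. Without the MIY and Meis1 arrays they were 1051 for miR-155 over MIG, 13 for KO over MIG and 1195 for miR-155 over KO. Over the mean of MIG and MIY, the Meis1 array gave 4333. For KO over MIG, quantile normalization gave 3, all probe sets tested 1 and the replicate block 0, and Kit, 1 of the 10 genes, passed with the arrays shifted, with a mean of at least 5, with a trend and robust prior, with only the groups compared, and without the MIY and Meis1 arrays. Leaving out each array in turn gave 228 to 398 probe sets and 0 to 3 of the 10 genes for miR-155 over MIG, 0 to 3 probe sets for KO over MIG, and 325 to 457 for miR-155 over KO; fewer samples remain in each. The cause of the other differences was not tested. Whether replicate numbers I to III pair the arrays could not be told. Deviations from the group means correlated over 0.1 in 4 of 9 same-number pairs (-0.07 to 0.16), and other pairs ran from -0.15 to 0.11. The pairs of replicate II were at 0.13, 0.16 and 0.13. With the replicate numbers as a block, 422 probe sets and 3 of the 10 genes were called for miR-155 over MIG, and 508 and 4 for miR-155 over KO. The MIY arrays are numbered in another style and had no block. No gene had a further probe set to try. Groups of 1 to 3 arrays limit all of these results.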
